A study of Mus musculus with 6 samples.

Results

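Grhl3 belongs to the grainyhead-like transcription factors, which bind DNA directly and control genes of epithelial barriers. In the epidermis it is known for its part in the cornified barrier before birth and in the repair of damaged skin. Chromatin immunoprecipitation followed by sequencing (ChIP-seq) maps such a factor: DNA bound to it is pulled down with an antibody and sequenced, and a peak is a stretch where the sequenced fragments (tags) pile up above background. The regions described here are the imiquimod-only regions. They were chosen by position alone, as the autosomal Grhl3 peaks of imiquimod-treated adult epidermis that no peak of the other 3 Grhl3 lists of the series overlapped by even 1 bp. A run of 52 neighbouring peaks on chromosome 2 was left out. Of 7897 autosomal imiquimod peaks outside that run, 5494 qualified, or 69.6% (exact 95% interval 68.5 to 70.6), out of 34098 peaks in the 4 lists together. The other 2403 are called overlapped peaks below.

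All samples are mouse skin. The imiquimod library came from adult epidermis. Imiquimod activates Toll-like receptors and, applied to skin, causes a psoriasis-like inflammation. The lists that had to be empty at a region were 2 replicates of whole skin from E16.5 embryos (11619 and 9685 peaks) and 1 library of adult epidermis from day 4 of a depilation experiment (4820 peaks). Depilation removes hair and injures the skin physically. All 4 libraries used the same custom Grhl3 antibody. Adult epidermis was separated from dermis with dispase, whereas the embryonic samples include dermis. Strain, sex, genotype, and the dose and duration of imiquimod are not in the labels, and no untreated adult epidermis is among the samples used here. An effect of imiquimod therefore cannot be told apart from other features of this 1 library. Nor is it stated whether the embryonic replicates are different animals. Input libraries exist for both ages and were not analysed here.

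The comparison asks what marks the regions of Grhl3 signal called in imiquimod-treated epidermis and neither in embryonic skin nor after depilation. Each condition after birth has 1 library, and peaks of 1 list are not replicates, so values are given with no test of conditions. The intervals hold counting error alone, with peaks taken as independent of each other. Library depth is unknown, and a region counted as absent from a list was not called there, which does not show that Grhl3 was not bound.

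The imiquimod-only regions were short and held few tags. A region held between 13 and 194 tags, with a median of 25 (interquartile range 21 to 33). Its length ran from 73 to 1002 bp, with a median of 242 bp (196 to 309). The overlapped peaks had a median of 43 tags (34 to 57) and of 362 bp (302 to 449). Thus 75% of the imiquimod-only regions held fewer tags than 75% of the overlapped peaks. Regions of 200 bp or less made up 19.5% of all autosomal imiquimod peaks. They were 27.4% of the imiquimod-only regions (1505 of 5494) and 1.41% of the overlapped peaks (34 of 2403). A longer peak has more bases that another peak can touch, and the part of length in these differences was not tested.

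The share of peaks found in no other list ran down along both the score and the length of the imiquimod peaks. The score is taken as the authors' measure of peak strength, and runs from 52.35 to 249.45 in this list. In the imiquimod list it was read from a column whose header was lost, and a like scale in the other lists is assumed. The highest score is 1588.84 in E16.5 replicate 1 and 3100 in E16.5 replicate 2 and after depilation. At the top score of the imiquimod list the authors' false discovery rate (FDR) reaches 10%, the largest value listed, and whether stronger peaks were removed before deposit is unknown. High deciles and best scores below are those of the peaks listed. Among the 10% of peaks with the lowest scores, 92.3% (90.2 to 94.0) were imiquimod-only. In the highest decile 30.3% (27.1 to 33.6) were, which still left 239 regions. By length the share was 98.4% (97.2 to 99.1) in the shortest decile and 30.8% (27.6 to 34.1) in the longest. By tags it was 98.7% among the 10% with the fewest and 24.9% among the 10% with the most. Scores of 100 or more were held by 24.4% of all these imiquimod peaks, by 720 imiquimod-only regions (13.1%) and by 1203 overlapped peaks (50.1%).

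**Figure D1:**
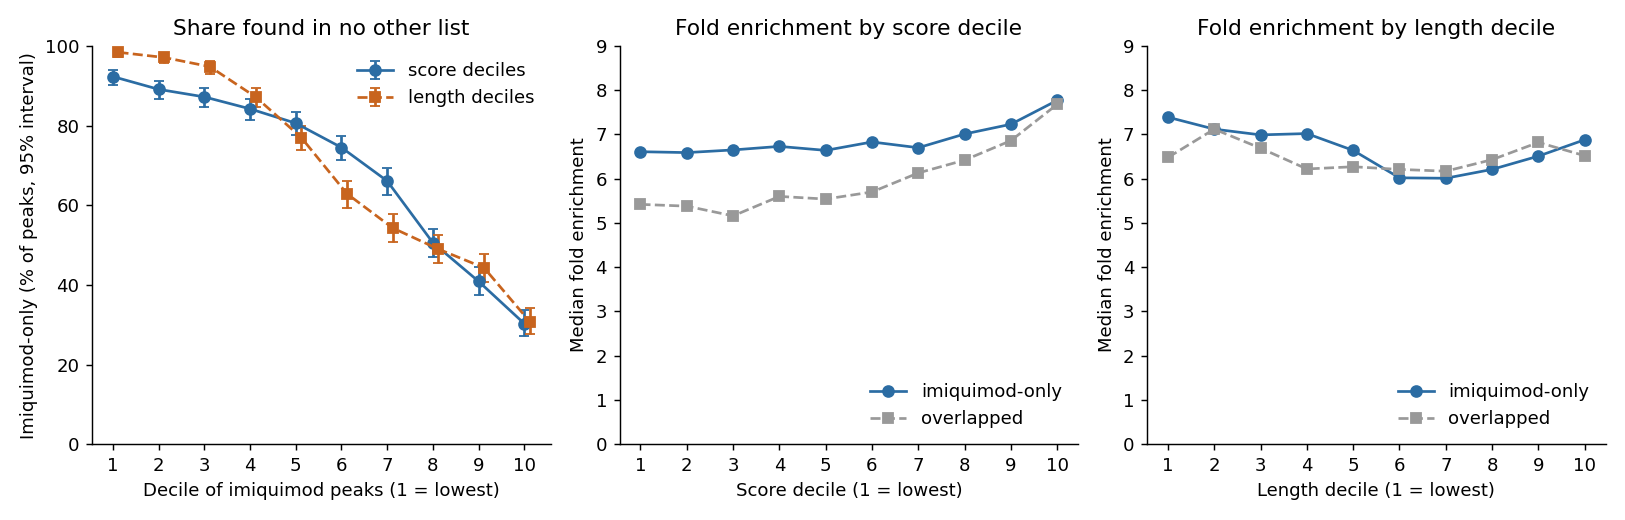
Left, the percentage of autosomal imiquimod peaks found in no other list (y) by decile of score or length (x), with exact 95% intervals. Middle and right, the authors' median fold enrichment (y) of imiquimod-only and overlapped peaks within each decile of score or length (x). The share runs from above 90% to about 30%, and the gap in fold seen within score deciles is not held within length deciles.

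Fold enrichment, the authors' ratio of signal to the caller's background, did not set the imiquimod-only regions apart in the way the score did. Its median was 6.75 (95% interval 6.70 to 6.80) in imiquimod-only regions and 6.48 (6.37 to 6.52) in overlapped peaks. Values of 10 or more were reached by 2.29% of all autosomal imiquimod peaks. These were 125 imiquimod-only regions (2.28%) and 56 overlapped peaks (2.33%), so that the shares lay within each other's intervals. At a like score, imiquimod-only regions had the higher median fold in 10 of 10 score deciles, by 0.0900 to 1.49. In the lowest decile the medians were 6.61 and 5.42, and in the highest 7.77 and 7.68. The imiquimod-only regions also had the lower median of tags in 10 of 10 score deciles, by 4 to 7 tags. Their median length was lower in 10 of 10, by 4 to 66 bp. The part of tags and length in the fold difference at a like score was not tested. At a like length, the order was mixed, with the imiquimod-only regions higher in 5 deciles, lower in 4 and equal in 1. In length deciles 1, 2 and 3, 777 of 790, 767 of 790 and 748 of 789 peaks were imiquimod-only. The overlapped medians there rest on few peaks, which limits every comparison by length decile below as well.

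Tags per bp, the tags of a peak divided by its length, was tightly held across the imiquimod-only regions. The median was 0.106, and the middle 50% lay between 0.0993 and 0.114. The lowest value was 0.0808. Values of 0.2 or more were as common among all autosomal imiquimod peaks (0.380%), in 21 imiquimod-only regions (0.382%) and in 9 overlapped peaks (0.375%). In overlapped peaks the median was 0.119 (0.109 to 0.130). It was 0.115 in peaks overlapped by 1 other list, 0.118 with 2 and 0.122 with 3. The imiquimod-only value was the lower one in 10 of 10 length deciles, by 0.00291 to 0.0150 tags per bp. A length difference of at most 6 bp between the medians remained within these deciles. At a like number of tags the order was mixed. The medians of imiquimod-only and overlapped peaks were 0.106 and 0.105 in tag decile 1 and 0.104 and 0.103 in decile 4. They were 0.124 and 0.132 in decile 10. In tag decile 1, 780 of 790 peaks were imiquimod-only, so its overlapped median rests on few peaks.

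**Figure D2:**
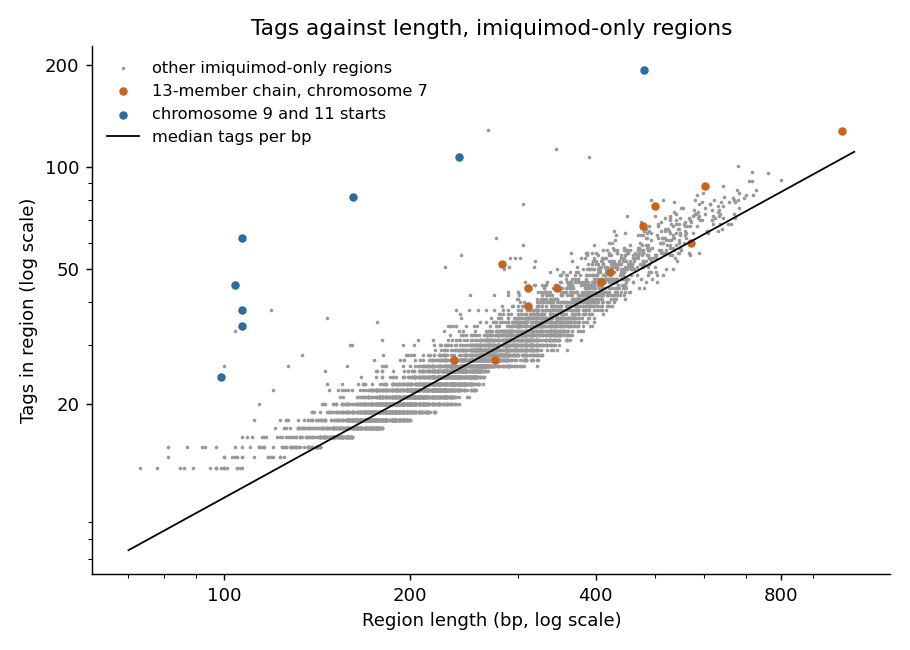
Tags in each of the 5494 imiquimod-only regions (y, log scale) against its length in bp (x, log scale), with a line at the median of 0.106 tags per bp. Most regions follow the line. The 8 regions at the starts of chromosomes 9 and 11 lie well above it, and the 13 regions of the chromosome 7 chain lie near or above it.

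Of the 5 imiquimod-only regions with the most tags per bp, 4 lay within 20 kb of each other at the start of chromosome 9, just after the unsequenced stretch that opens each mouse chromosome in the assembly. The densest was chr9:3019772-3019878, with 62 tags in 107 bp, or 0.579 tags per bp. The region chr9:3007392-3007553 held 0.506 tags per bp, chr9:3022713-3022952 held 0.446 and chr9:3005392-3005495 held 0.433. The only one of the 5 elsewhere was chr5:115372349-115372616, with 129 tags and 0.481 tags per bp. These 5 regions combined dense tags with a low fold, between 4.06 and 5.75, all below the median of 6.75. Dense regions as a set did not share this. Of the 21 imiquimod-only regions with 0.2 or more tags per bp, 11 (52.4%, 29.8 to 74.3) had a fold below that median. By deciles of tags per bp, the median fold of imiquimod-only regions was 6.65 in the lowest decile and 7.97 in the highest.

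The start of chromosome 9 also shows how narrowly a region can miss the other lists. Between 3005392 and 3037666 lay 7 imiquimod-only regions, and an eighth region of this kind, with 194 tags, lay at the start of chromosome 11 at 3000189 to 3000668. These 8 were grouped after their values were seen. They held 0.242 to 0.579 tags per bp, with a median of 0.418, at a median fold of 4.81. In the same stretch of chromosome 9 the depilation list had 30 peaks, scoring 55.2 to 783, and E16.5 replicate 2 had 11, scoring 50.3 to 233. E16.5 replicate 1 had 0 there, and its nearest peak was at least 494618 bp away. Each of the 7 regions lay 86 to 3879 bp from a depilation peak. Here the lists differ in position within a shared stretch, and the signal of the stretch as a whole was not limited to imiquimod.

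Such near misses made up a small share of the imiquimod-only regions. Of the 5494 regions, 56 (1.02%) had a peak of another list within 500 bp and 667 (12.1%) within 10 kb. The shares to be had from the numbers of peaks in the lists alone were not tested. The median gap to the nearest peak of any other list was 54.7 kb (52.5 to 57.5). It was 101.1 kb to E16.5 replicate 1, 118.3 kb to E16.5 replicate 2 and 205.3 kb to the depilation list, in the order of the numbers of peaks in those lists. The members nearest to another list were chr15:17327765-17327940, 3 bp from a depilation peak, and chr4:152856842-152857105 and chr17:50648784-50649111, at 8 and 14 bp from peaks of E16.5 replicate 1. Their scores were 60.05, 91.06 and 101.46. On the other side of the threshold, the smallest overlaps were 11 bp at chr3:111952659-111952906, 12 bp at chr11:80965677-80966179 and 28 bp at chr5:138682287-138682607. Of the 2403 overlapped peaks, 1970 were covered over their whole length and 3 over less than 10% of it.

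**Figure D3:**
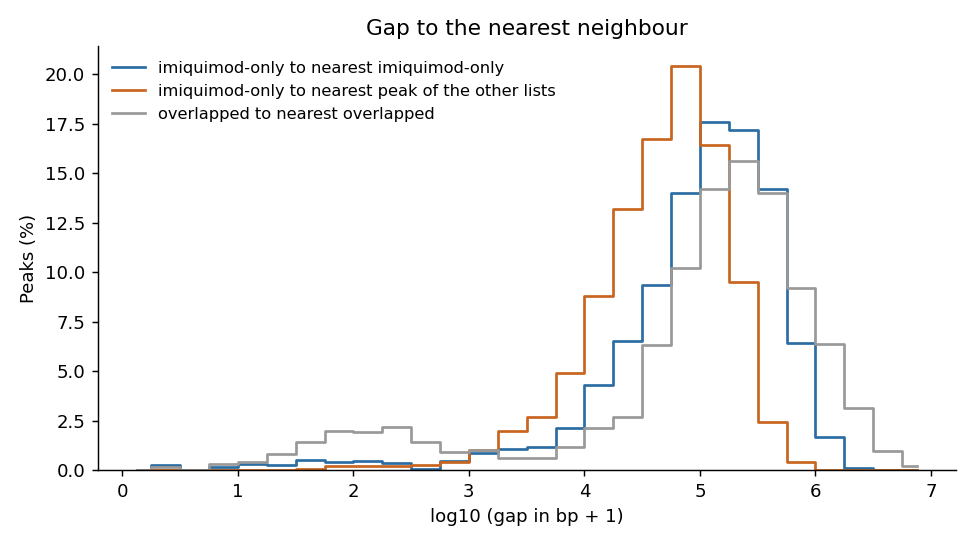
Percentage of peaks (y) by the gap to the nearest neighbour, as log10 of the gap in bp plus 1 (x). Gaps from imiquimod-only regions to other lists centre near 54.7 kb, and those between imiquimod-only regions near 127.8 kb. The overlapped peaks have a second group of gaps below 1 kb.

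Most imiquimod-only regions had no other imiquimod-only region within 10 kb. Joined where neighbours lay within 10 kb, the imiquimod-only regions formed 223 chains of 2 or more regions with 473 members (8.61%, 7.88 to 9.38), and 5021 had no such neighbour. Of the chains, 209 were pairs and 12 held 3 regions. Among overlapped peaks, 15.0% had another overlapped peak within 10 kb, although there were fewer of them. The contrast was larger within 1 kb, at 3.37% of imiquimod-only regions and 11.6% of overlapped peaks. Within 50 kb the shares were 26.4% and 24.7%. Within 10 kb of an overlapped peak lay 90 imiquimod-only regions (1.64%), and 84 overlapped peaks (3.50%) lay within 10 kb of an imiquimod-only region. How many would lie this close from the numbers of peaks alone was not tested. A share with a neighbour over all autosomal imiquimod peaks together was not computed, so these shares come from sets of unlike size. Regions in chains were slightly longer and better scored than those alone, with medians of 255 bp (246 to 263) against 241 bp (238 to 244) and scores of 69.0 (66.6 to 71.2) against 63.3 (62.6 to 63.8). Their median tags per bp were 0.109 and 0.106, and their median folds 6.86 and 6.73.

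The largest chain held 13 regions in 24411 bp on chromosome 7, from 38960832 to 38985242. Its regions held 27 to 128 tags each and 748 together. Their tags per bp lay between 0.0982 and 0.184 with a median of 0.127, their folds between 4.73 and 9.95, and their scores between 55.2 and 190. The longest imiquimod-only region of all, chr7:38974467-38975468, was part of it, with 1002 bp and 128 tags. Unlike the start of chromosome 9, this stretch held no peak of another list, and the nearest lay 48037 bp from it, in the depilation list. The second chain was the 6 regions at 3005392 to 3022952 on chromosome 9. The next 3 held 3 regions each, at chr16:91338466-91346410, chr8:126685077-126698606 and chr7:126170958-126172116, with 137, 108 and 107 tags. Their median folds were 6.66, 6.27 and 6.12.

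On the scale of 1 Mb, the chain placed the bin at 38 to 39 Mb of chromosome 7 first, with 15 imiquimod-only regions among 17 imiquimod peaks. Bins at 152 to 153 Mb of chromosome 4 and 120 to 121 Mb of chromosome 14 held 12 each, and 6 further bins held 10. In this chromosome 14 bin every imiquimod peak was imiquimod-only, beside 9 peaks of the other lists. The same held, with 10 of 10, at 170 to 171 Mb of chromosome 2, 104 to 105 Mb of chromosome 8 and 93 to 94 Mb of chromosome 14. Over all autosomal imiquimod peaks outside the run the share was 69.6%. The bin at 3 to 4 Mb of chromosome 9 held 10 beside 61 peaks of the other lists, and the bin at 92 to 93 Mb of chromosome 16 held 10 beside 15. Of all bins with any imiquimod-only region, 577 held 1 and 542 held 2.

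The regions with the highest fold enrichment were scattered over 5 chromosomes. The highest was chr16:59549498-59549815, with a fold of 20.18, 51 tags and a score of 231.36. Next came chr8:57993612-57993711, only 100 bp long, with a fold of 19.20 from 26 tags. The regions chr2:33789349-33789638 and chr9:57698339-57698515 both had a fold of 18.52, from 51 and 35 tags. The fifth was chr19:4816690-4817200 with a fold of 15.51 from 65 tags, and it was also among the 5 best by score. In the first 3 the summit, the position of highest tag pile-up, lay at most 1.5 bp from the centre of the peak. In the chromosome 9 and chromosome 19 regions it lay 40.0 and 42.0 bp from the centre. The nearest peaks in other lists lay 8533, 15726, 45966, 84794 and 42925 bp from the 5 regions, in the order given.

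By score, the leading regions were longer and their FDR was high. The best was chr6:16786275-16787002, with a score of 249.45, 86 tags and a fold of 10.01. It was followed by chr2:63936189-63936687 at 247.61, chr11:6599577-6600256 at 244.63, chr5:105690379-105690918 at 244.40 and the chromosome 19 region at 243.92. The FDR the authors list for these 5 was 9.54% or more. Among the imiquimod-only regions the listed FDR was highest at both ends of the score. Its median was 9.40% at scores up to 55, 3.09% between 100 and 120 and 8.08% above 200. An FDR of 5% or less was listed for 46.3% of all autosomal imiquimod peaks, for 2087 imiquimod-only regions (38.0%) and for 1569 overlapped peaks (65.3%). Besides the best scoring region and the chromosome 7 region, the longest were chr5:50565710-50566507 at 798 bp, chr3:115969957-115970717 at 761 bp and chr13:39978658-39979378 at 721 bp.

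The summits of a minority of the imiquimod-only regions gathered at a like distance from an end of the peak. Over all imiquimod-only regions the distance from the summit to the nearer end had a median of 95 bp (interquartile range 66 to 116). This median was 52 bp in regions of up to 150 bp and 168 bp in those above 500 bp. The commonest distance from the summit to the nearer end was 53 bp, in 208 regions, followed by 52 bp in 145 and 51 bp in 117. A summit 50 to 56 bp from an end was found in 10.6% of all autosomal imiquimod peaks. It was found in 765 imiquimod-only regions, or 13.9%, and in 69 overlapped peaks, or 2.87% (2.24 to 3.62). This band was seen in the data before it was counted. Among regions of 200 bp or less the share was 37.7% (568 of 1505) against 20.6% (8.70 to 37.9) of the 34 overlapped peaks as short. With 34 such overlapped peaks the second share is imprecise, and the difference at like length was not tested. Of the 8 regions at the starts of chromosomes 9 and 11, 7 had their summit 49 to 53 bp from an end.

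**Figure D4:**
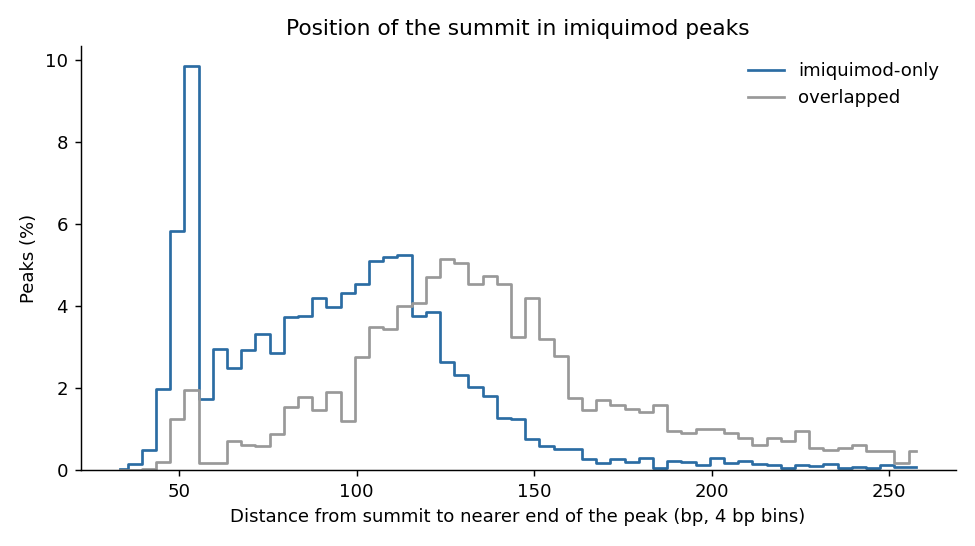
Percentage of imiquimod-only and of overlapped peaks (y) by distance from the summit to the nearer end of the peak in bp (x, bins of 4 bp). Imiquimod-only regions have a sharp mode near 53 bp and a broad one near 110 bp, and overlapped peaks have a broad mode above 120 bp and a small rise near 53 bp.

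Relative to length, the summit lay off centre by a median of 24.1% (23.3 to 24.8) of the distance from the centre to an end in imiquimod-only regions and 22.9% (21.8 to 24.2) in overlapped peaks. The offset did not rise steadily with length. It was 32.3% in imiquimod-only regions above 150 and up to 200 bp, 14.1% above 200 and up to 250 bp, and 41.4% above 500 bp. Overlapped peaks had offsets of 21.5%, 17.3% and 37.6% in these length classes. Over deciles of length, the imiquimod-only regions had the higher median offset in 7 and the lower in 3. Summits lay left of centre in 49.6% of all autosomal imiquimod peaks, in 51.2% of the imiquimod-only regions (2814, 49.9 to 52.5) and in 46.0% of the overlapped peaks (1106, 44.0 to 48.0).

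All 19 autosomes carried imiquimod-only regions, from 129 on chromosome 19 to 420 on chromosome 1. As a share of imiquimod peaks they ranged from 56.8% (51.9 to 61.6) on chromosome 11 to 79.4% (74.8 to 83.5) on chromosome 14. Chromosome 11 also had the most peaks of the other lists per imiquimod peak, 4.27, and chromosome 14 the fewest, 2.80. Over the 19 autosomes the share was lower where there were more such peaks (Spearman's rho = -0.64, a description, since both measures have the number of imiquimod peaks as denominator). Chromosome 5 departed from this order, with 2.94 and a share of 66.2%. By autosome, the median fold of the imiquimod-only regions ran from 6.52 to 7.02 and their median tags per bp from 0.105 to 0.109. Their median length ran from 224 bp on chromosome 14 to 274 bp on chromosome 11, the autosomes with the highest and the lowest share.

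**Figure D5:**
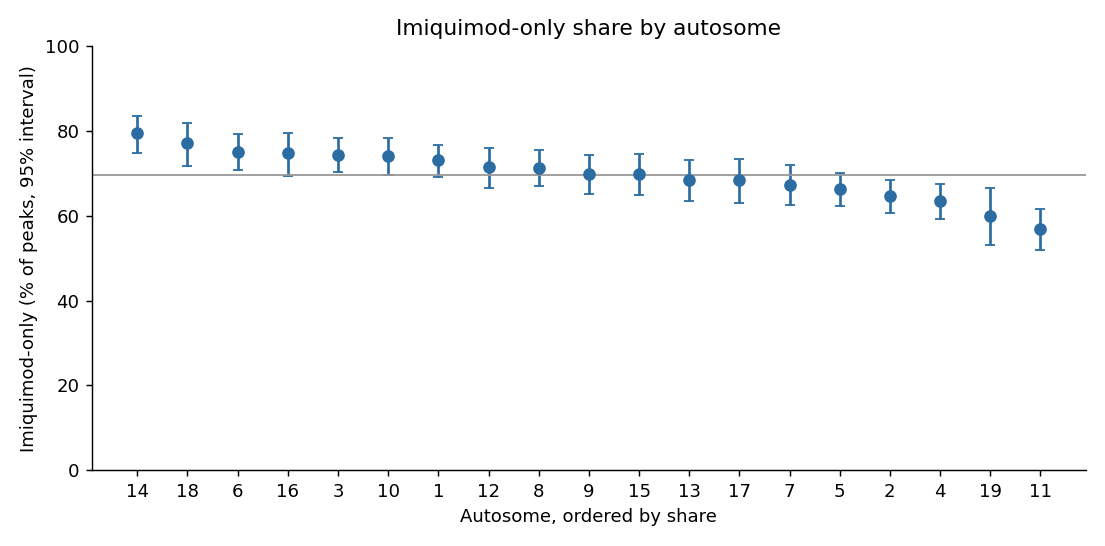
Percentage of autosomal imiquimod peaks that are imiquimod-only (y, exact 95% intervals) for each of 19 autosomes (x, ordered by share), with a line at 69.6%. Chromosomes 11 and 19 are lowest and chromosomes 14 and 18 highest.

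The corresponding regions of the depilation list were fewer and made up less of their list. Of 4749 autosomal depilation peaks, 2104 (44.3%) overlapped no peak of the other 3 lists. They too were shorter than the overlapped peaks of their list, with medians of 176 and 252 bp, and had lower scores, with medians of 56.3 and 69.5. Of these depilation regions, 3.61% (2.86 to 4.50) had another within 10 kb, against 8.61% of the more numerous imiquimod-only regions. A peak of another list lay within 10 kb of 18.1% (16.4 to 19.8) of the depilation regions and of 12.1% of the imiquimod-only regions. These lists differ in layout, number of peaks and range of scores, and the differences were not tested. The highest score was 249.45 in the imiquimod list and 3100 in the depilation list. Whether stronger imiquimod peaks were removed before deposit is unknown, and a like scale of score in both lists is assumed. The shares of 44.3% and 69.6% then come from unlike ranges of score.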

How the data were processed

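Grhl3 ChIP-seq peak lists of 4 libraries were used, 1 list per library. Bowtie 0.12.7, bedtools 2.11.2 and the build mm9 appear in the submitters' processing notes. For the peak caller, neither its settings nor its use of input is given in the sources used here. As deposited, the lists for E16.5 and depilation hold positions and a peak score. Per the file headers, the imiquimod list holds the authors' tag count per peak, length, summit offset, fold enrichment as a ratio over background and FDR in percent. A spreadsheet error replaced the header of a further column in the deposited list, whose values were read as a peak score.

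Positions are 1-based, so BED starts were shifted by 1. Overlap meant at least 1 shared bp, and gaps are edge to edge. The overlap and gap code was tested on simulated data, and bedtools 2.31.1 gave the same 5494 regions. Shares have exact (Clopper-Pearson) 95% intervals and medians binomial order-statistic intervals. Python 3.11.15, numpy 2.4.6, pandas 2.3.3, scipy 1.17.1 and matplotlib 3.10.9 were used.

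Regions named are the 5 highest by tags per bp, fold, score and length, the 5 largest chains and 1 Mb bins (ties by summed tags), and the 3 on either side of the overlap threshold. The regions, lists and rules were chosen with earlier results of these data known. Genes and sequences were not assigned, since the annotation used here is of another build than mm9.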

Additional observations from a re-analysis of the deposited data

How the results depend on the processing

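Across 8 alternatives for each of 7 quantities, and 2 more distances for clustering and for gaps to other lists, 36 of 60 values stayed within 1.5 times the count or within the interval of the value reported, and 24 moved. No alternative leaves out a library of the imiquimod condition, which has 1. Keeping only peaks with an FDR of 5% or less left 2087 regions, with medians of 0.111 tags per bp, a fold of 6.94, 302 bp and a summit offset of 25.9%. Then 6.42% had a neighbour and 13.1% another list's peak within 10 kb. With scores of 100 or more the values were 720 regions, 0.119 tags per bp, a fold of 7.41, 407 bp, an offset of 29.3%, 2.78% and 15.3%. Thinner sets of regions have fewer neighbours by construction. Leaving out either E16.5 list gave 5574 to 5968 regions, 0.106 to 0.107 tags per bp, 243 to 249 bp and 9.33% to 9.87% with another list's peak within 10 kb. Counting a gap of up to 500 bp as overlap lowered this last share to 11.2%. Keeping the chromosome 2 run raised the share with a neighbour to 9.47%. At 5 kb the shares with a neighbour and with another list's peak were 6.21% and 6.39%, and at 50 kb they were 26.4% and 47.3%. No paired analysis was possible because only the E16.5 samples carry replicate numbers. Unknown depth limits every statement of absence from a list.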

Other observations

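The chromosome 2 run that was left out held 52 imiquimod peaks between 77711665 and 77861350, all overlapped by no other list. In this span of 150 kb both E16.5 replicates had 1 peak each and the depilation list had 0. The run's peaks had a median of 74.5 tags, 432 bp, 0.154 tags per bp and a fold of 5.93, with folds from 3.28 to 13.92 and scores from 61.34 to 241.73. Against the imiquimod-only regions, with medians of 25 tags and 0.106 tags per bp, these peaks were longer and denser at a lower fold. The largest chain among the imiquimod-only regions, on chromosome 7, had a median of 0.127 tags per bp.

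On chromosome X, 17 of 25 imiquimod peaks were overlapped by no other list. They had a median of 23 tags, 229 bp, 0.108 tags per bp and a fold of 8.12, with scores from 52.95 to 217.57.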
